A study of Rattus norvegicus with 25 samples.

Results

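The 10 genes described here are a list of cartilage genes, taken by symbol from the count table of each library. They are the collagen genes Col2a1, Col9a1, Col11a1 and Col10a1, the proteoglycan and link protein genes Acan and Hapln1, the matrilin genes Matn1 and Matn3, the transcription factor gene Sox9 and Lect1, the older symbol of Cnmd, which encodes chondromodulin. Of the 10, 9 were among the 16881 gene symbols of the files, and Col10a1 was not analysed here. Matn1 and Matn3 were too low to pass the filter on low counts, so 7 were tested among 11492 genes. They were picked by name, with earlier results of these data known.

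RNA came from tissue labelled as tooth and periodontal ligament, the ligament that holds a tooth in its socket, of Sprague-Dawley rats whose maxillary first molars had been pulled, dried and put back. Drying lasted 60 min in delayed replantation (DR) and 5 min in immediate replantation (IR), and the groups were DR day 7, IR day 7, DR day 3 and IR day 3, with 6 libraries each, counted in days after replantation. A single further library, NT, is labelled control for both treatment and time and has no replicate. Postnatal day 21 is given as the age for all 25 libraries without the event it refers to, so the age of NT relative to the other groups is not known. Separate animals are not stated either, and p-values therefore measure only a spread between libraries that may be technical.

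Cartilage owes its stiffness to a mesh of type II collagen, which carries types IX and XI as minor partners, and to aggrecan, a large sulfated proteoglycan that is held on hyaluronan by the link protein Hapln1. Sox9 is the transcription factor that chondrocytes need to make this matrix, and it is also expressed in other tissues, among them gland epithelia. In bone healing, cartilage can form before bone, while Col11a1 is also transcribed by cells that make type I collagen fibres.

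Promoters of Col9a1, Hapln1, Acan and Col11a1 are shown because the first 3 are matrix genes whose levels went with Col2a1 across libraries, whereas Col11a1 went with other collagen genes, as described further on. The split is not clean for Acan, which had r = 0.708 with Col2a1 and 0.777 with Col11a1. RefSeq promoters of build GRCr8 were matched by symbol for 6 of the 10 genes. Each sequence is the 250 bases before the annotated start, on the plus strand, at chr9:34081114-34081363 for Col9a1, chr2:22366717-22366966 for Hapln1, chr1:142390701-142390950 for Acan and chr2:204508886-204509135 for Col11a1. Capitals mark a match to ACAAAG, which is a core motif of SOX factors.
Col9a1: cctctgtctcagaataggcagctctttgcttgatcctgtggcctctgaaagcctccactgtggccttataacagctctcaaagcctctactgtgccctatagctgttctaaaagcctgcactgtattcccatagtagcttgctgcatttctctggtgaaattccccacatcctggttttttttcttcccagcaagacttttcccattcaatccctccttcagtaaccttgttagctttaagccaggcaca
Hapln1: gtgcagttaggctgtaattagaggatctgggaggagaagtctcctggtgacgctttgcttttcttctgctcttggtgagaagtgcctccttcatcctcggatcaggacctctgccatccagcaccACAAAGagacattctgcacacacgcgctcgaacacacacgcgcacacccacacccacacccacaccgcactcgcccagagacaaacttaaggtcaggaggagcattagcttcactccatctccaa
Acan: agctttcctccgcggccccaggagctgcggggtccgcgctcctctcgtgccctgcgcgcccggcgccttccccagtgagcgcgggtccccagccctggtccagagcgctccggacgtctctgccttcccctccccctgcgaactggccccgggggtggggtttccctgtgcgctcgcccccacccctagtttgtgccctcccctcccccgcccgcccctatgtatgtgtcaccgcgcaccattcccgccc
Col11a1: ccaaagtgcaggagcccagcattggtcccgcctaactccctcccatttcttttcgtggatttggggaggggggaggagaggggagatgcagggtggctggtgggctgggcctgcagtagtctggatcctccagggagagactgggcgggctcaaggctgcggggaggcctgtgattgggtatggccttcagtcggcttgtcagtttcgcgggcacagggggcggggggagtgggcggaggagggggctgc
The windows were searched on both strands for the SOX core motifs ACAAAG and ACAATG and for the TATA box motif TATAAA. Hapln1 held ACAAAG once, starting at position -125 relative to the gene's start, and Col9a1, Acan and Col11a1 held none of the 3 motifs in these windows. No matches overlapped. Among 33469 promoters of the same length, 16.3% held ACAAAG, 11.1% ACAATG and 12.9% TATAAA. Base composition differed, with 46.8% G and C and 0 CpG pairs in Col9a1, 54% and 9 in Hapln1, 73.6% and 24 in Acan, and 65.6% and 9 in Col11a1, against a median of 51.2% G and C over all promoters. These matches describe letters only.

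Some libraries stood apart before any comparison. Totals ran from 5.04 to 8.81 M counts in the 24 replanted libraries, with 8.55 M in NT. Secreted protein genes of nasal glands (19 in the files, Vom1r1 at 0) took over 5% of counts in 6 replanted libraries (DR day 7 replicate 6, IR day 7 replicate 6, DR day 3 replicate 4 and IR day 3 replicates 3, 4 and 5), with up to 31.4%. Genes of lipid-secreting glands (12 in the files, Dgat2l6 at 0) took over 1% in 4 libraries (DR day 3 replicates 1, 2 and 3 and IR day 3 replicate 6), with up to 2.65%. Genes listed for the labelled tissues had reads: 8 ligament and tendon genes took 0.0555% to 1.29% of counts after replantation and 2.22% in NT. The 11 tooth genes, of which Klk4 was at 0 throughout, took 0.000702% to 0.111% and 0.24%. Of these 11, 5 passed the filter on low counts, and Dmp1 and Phex are also in the osteoblast list. Osteoblast genes took 0.0674% to 12.2% after replantation and 18.1% in NT, and ribosomal RNA entries 9.73% to 33.8% and 2.91%. The osteoblast list includes Col1a1, a collagen gene of both bone and ligament, so its share does not measure osteoblasts alone. In tissue measured in bulk, fewer cells of a type and less RNA per cell cannot be told apart.

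Levels are given as CPM, the counts of a gene scaled to the library's TMM-adjusted total, and they are compared for a gene across libraries, not between genes. Col2a1, the main collagen of cartilage, was counted at few reads throughout. At day 7 it had 6.86, 14.1 and 19.0 CPM as the lowest, median and highest of 6 libraries in DR, and 0.501, 5.33 and 12.2 CPM in IR. At day 3 it had 0, 0.967 and 44.8 CPM in DR and 0, 3.72 and 11.3 CPM in IR, and it had 0.710 CPM in NT. All 6 DR day 7 libraries held Col2a1 reads, 62 to 120 of them, and the day 7 groups overlapped. At day 3 the spread was wide, with 0 reads in DR replicates 3 and 4 and in IR replicate 6, each of which allows up to 3 counts.

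**Figure D1:**
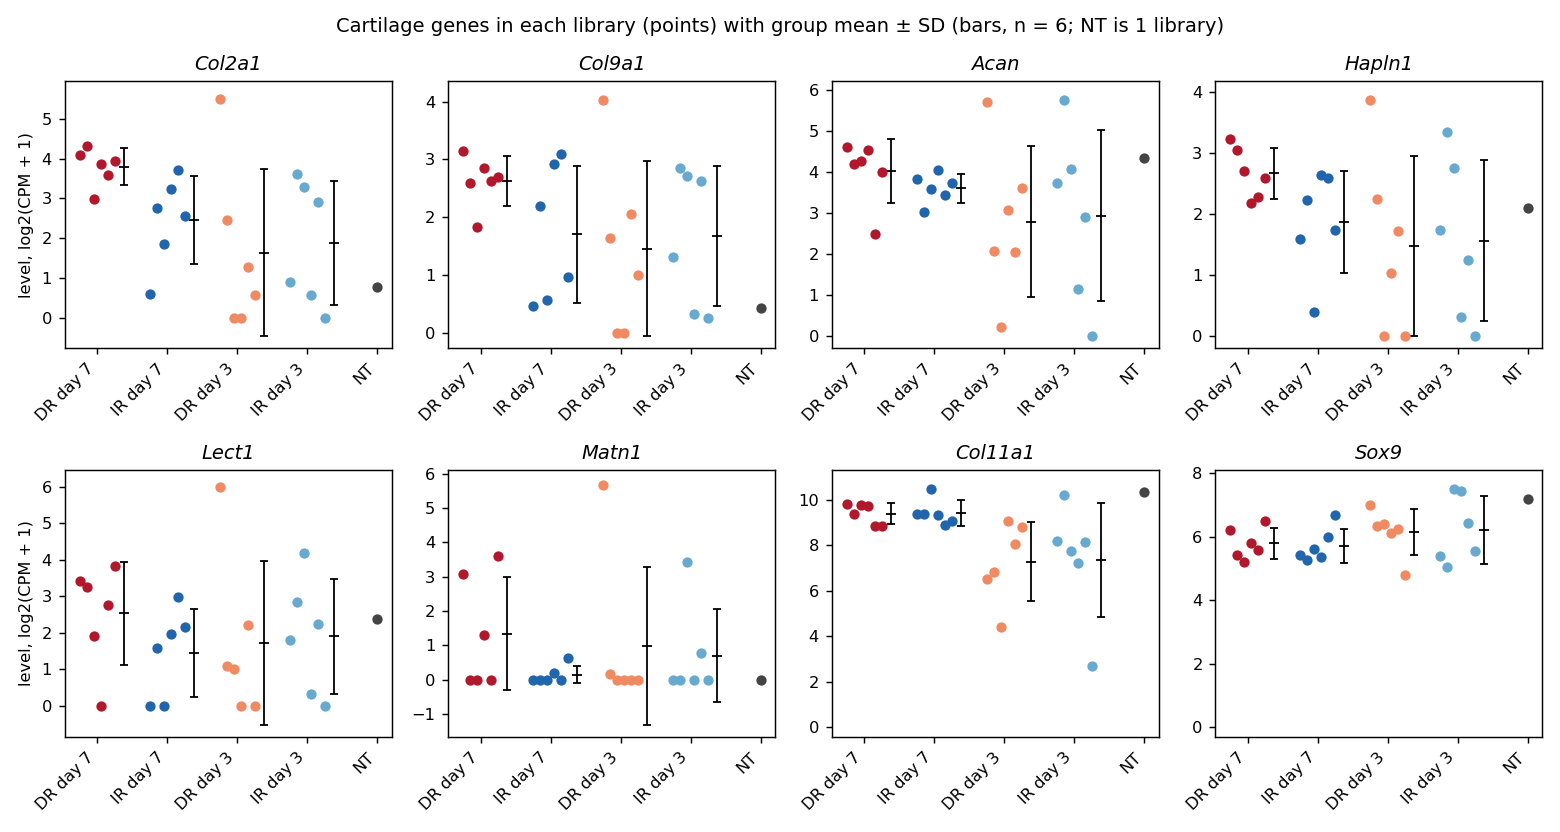
Levels of 8 cartilage genes as log2(CPM + 1), for DR day 7, IR day 7, DR day 3 and IR day 3 (points, 6 libraries each; bar, mean ± SD) and NT (1 library). Col2a1 was 6.86 CPM or more in all 6 DR day 7 libraries, and at day 3 the points of most of these genes spread from 0 or near 0 to their highest values.

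Col9a1, which encodes a chain of the type IX collagen on the surface of type II fibres, had 2.55, 5.36 and 7.81 CPM at day 7 in DR and 0.376, 2.25 and 7.56 CPM in IR. At day 3 it had 0, 1.55 and 15.4 CPM in DR and 0.201, 3.33 and 6.18 CPM in IR, with 0.355 CPM in NT. Its groups overlapped, and its lowest libraries at day 3 were mostly those in which Col2a1 was low.

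Acan, the aggrecan core protein, had 4.66, 17.9 and 23.4 CPM at day 7 in DR and 7.10, 11.7 and 15.6 CPM in IR. At day 3 it had 0.170, 5.33 and 51.4 CPM in DR and 0, 9.42 and 53.0 CPM in IR. NT had 19.2 CPM, above 20 of the 24 replanted libraries. Hapln1, the link protein, had 3.52, 5.27 and 8.33 CPM at day 7 in DR and 0.325, 3.01 and 5.24 CPM in IR. Its day 3 levels were 0, 1.67 and 13.6 CPM in DR and 0, 1.87 and 9.10 CPM in IR, with 3.31 CPM in NT. For both genes the highest level lay at day 3, in DR replicate 1 or IR replicate 2, and the groups overlapped.

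Lect1 encodes a secreted inhibitor of blood vessel growth made by cartilage. At day 7 its level was 0, 7.15 and 13.3 CPM in DR and 0, 2.43 and 6.82 CPM in IR, and at day 3 it was 0, 1.07 and 62.3 CPM in DR and 0, 3.08 and 17.2 CPM in IR. NT had 4.14 CPM. A library without Lect1 reads occurred in every group of 6, and the groups overlapped. Matn1, a matrilin that links collagen fibres to aggrecan in cartilage, had reads in 9 of the 24, 3 of them in DR day 7 and 2 in each other group, and 0 in NT, and 64.1% of its 568 reads came from DR day 3 replicate 1. Matn3, a matrilin of growing cartilage, had 6 reads in all, 3 each in IR day 3 replicates 3 and 5, and 0 in the other 22 replanted libraries and in NT.

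Because Matn1 and Matn3 did not pass the filter, they were compared by permutation of mean CPM in a family of 8 tests. These were exact for 6 libraries against 6, and used 100000 resamples for 12 against 12 in the comparison of days averaged over DR and IR. All permutation tests here are two-sided. With 6 libraries against 6 their smallest p is 0.00216, and it is larger where many libraries hold 0 reads. Matn1 averaged 3.34 ± 4.79 CPM in DR day 7 and 0.111 ± 0.212 CPM in IR day 7 (SD, n = 6 each, exact permutation p = 0.182, Benjamini-Hochberg 0.766). At day 3 it averaged 8.27 ± 20.2 CPM in DR and 1.72 ± 3.88 CPM in IR (SD, n = 6 each, exact permutation p = 0.879, Benjamini-Hochberg 0.955). No Matn1 or Matn3 difference passed in this family. For Matn3 none could, since its reads lay in 2 libraries of 1 group. Its exact permutation p of 0.455, in DR against IR at day 3 and between days in IR, was the smallest those reads allow. Libraries at 0 limited the Matn1 tests as well. With no filter on low counts, edgeR gave Matn1 in DR over IR at day 7 an unadjusted p of 0.0447 (log2 fold change 4.52, SE 2.12, adjusted p = 1), and without the 4 libraries of high lipid gland share, where Matn1 passed the filter, one of 0.0194 (4.58, SE 1.77, adjusted p = 1). In that last setting the unadjusted p of Matn1 was also 0.0481 in DR against IR at day 3 (edgeR, adjusted p = 0.695). Between days it was 0.0301 in DR (adjusted p = 0.522) and 0.0456 in IR (adjusted p = 0.268). The DR day 3 libraries left there held 0 Matn1 reads. With no filter on low counts, Matn3 had an unadjusted p of 0.0459 in DR against IR at day 3 (edgeR, adjusted p = 0.968). Between days in IR it was 0.0419 (adjusted p = 0.262), with no fold given since one side held 0 reads.

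Col11a1 encodes a chain of type XI collagen, and its lowest levels all lay at day 3. Its day 7 levels were 459, 753 and 913 CPM in DR and 479.7, 647 and 1432 CPM in IR, against 20.1, 188 and 542 CPM in DR and 5.43, 248 and 1180 CPM in IR at day 3. NT had 1314 CPM, above 23 of the 24 replanted libraries. Only DR replicate 4 and IR replicate 2 of the day 3 libraries reached the range of the day 7 libraries, and IR day 3 replicate 6 had 27 reads.

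Sox9, which switches on the collagen and aggrecan genes in chondrocytes, had 36.0, 50.8 and 89.0 CPM at day 7 in DR and 37.2, 44.6 and 101.4 CPM in IR. At day 3 it had 26.6, 77.2 and 127 CPM in DR and 32.1, 65.1 and 180.1 CPM in IR. NT had 143 CPM, above 22 of the 24 replanted libraries. All libraries held Sox9 reads and the groups overlapped.

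**Figure D2:**
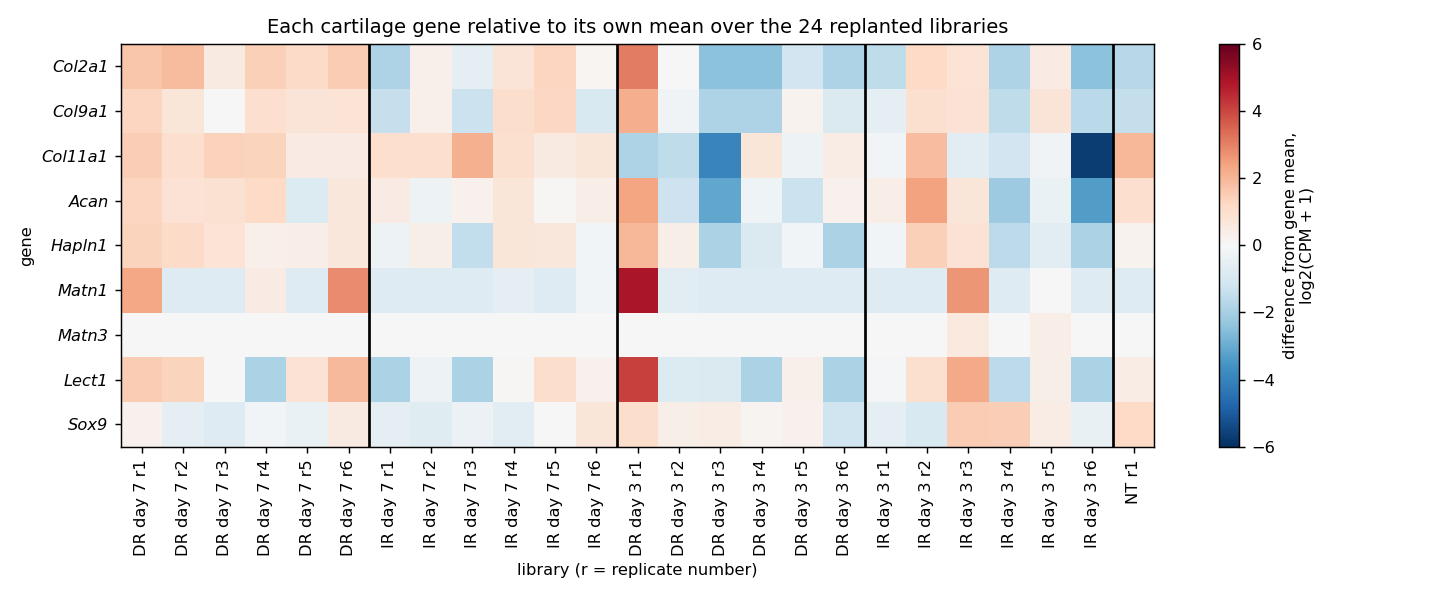
Difference of each gene's log2(CPM + 1) from its own mean over the 24 replanted libraries, in each of 25 libraries (columns, from DR day 7 to NT). DR day 3 replicate 1 is highest for Col2a1, Col9a1, Hapln1, Matn1 and Lect1 but below the mean for Col11a1, and IR day 3 replicate 6 is low for most genes.

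DR day 3 replicate 1 differed from the other 5 libraries of its group. It had the highest level of the 24 for Col2a1 (44.8 CPM, next 19.0), Col9a1 (15.4, next 7.81), Hapln1 (13.6, next 9.10), Matn1 (49.5, next 11.1) and Lect1 (62.3, next 17.2), and ranked 2 for Acan. For Col11a1 it ranked 22 of 24, with 91.5 CPM. Of the 13 genes of a list of other cartilage matrix genes in the files, 5 were also highest in this library and 8 were highest elsewhere. The share of all genes that were highest in this library was not counted. These counts therefore do not set cartilage genes apart from other genes. The 5, named after their values were seen, were Cytl1, a secreted protein of chondrocytes, at 408.6 CPM, Ucma, a protein of upper growth cartilage, at 135.3 CPM, Col9a2, the second chain of type IX collagen, at 71.5 CPM, Chad, which binds collagen, at 59.2 CPM, and Scrg1 at 19.2 CPM. Of the other 8, Comp ranked 3 of 24 in this library, and Epyc and Cilp2 ranked 10. Col11a2 and Cilp ranked 15, Hapln3 17, Matn4 18 and Prg4 19. Its skeletal muscle share was 0.775%, second to the 1.06% of DR day 3 replicate 5, its lipid gland share was 1.62% and its nasal gland share 1.43%, and their part in these levels was not tested.

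The comparison of DR with IR asks what the longer drying did. At day 7, 6 of the 7 tested genes had a positive log2 fold change, with a median of 0.72 against 0.00 over all 11492 genes. Col2a1 differed by 1.24 (SE 1.10), Lect1 by 1.40 (SE 1.35), Hapln1 by 0.84 (SE 0.95), Col9a1 by 0.72 (SE 0.98) and Acan by 0.55 (SE 0.88), while Sox9 (0.05, SE 0.41) and Col11a1 (-0.06, SE 0.71) lay close to 0. None was called (edgeR adjusted p = 1 for each) and 0 of the 7 had an unadjusted p under 0.05, where percent called over all genes was 0 (0 of 11492, with 206 at an unadjusted p under 0.05, 3 called by DESeq2 and 0 by limma-voom with quality weights). These errors use a spread shared with the more variable day 3 libraries.

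Taken within day 7 alone, Col2a1 and Hapln1 had the smallest p among the 7. The mean of Col2a1 was 3.72 ± 0.503 log2 CPM in DR and 2.15 ± 1.41 in IR (SD, n = 6 each), a difference of 1.57 with an exact permutation p of 0.0152, where 3.83% of all genes had a p under 0.05 and the Benjamini-Hochberg value over all genes was 0.976. Hapln1 had 2.49 ± 0.467 log2 CPM in DR and 1.46 ± 1.18 in IR (SD, n = 6 each, exact permutation p = 0.0455, Benjamini-Hochberg 0.976). Between libraries of the same number, Col2a1 was higher in DR in 5 of 6 pairs, Acan in 5, Col9a1, Hapln1 and Lect1 in 4, and Col11a1 and Sox9 in 3. With the replicate number as a block, Col2a1 differed by 1.49 (SE 0.52, edgeR adjusted p = 0.68). Neither difference held up after correction over all genes.

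At day 3, none of the 7 genes was called between DR and IR, and 0 of them had an unadjusted p under 0.05 (edgeR). All 7 log2 fold changes were smaller than their SE, with a median of 0.14 against -0.04 over all genes and a percent called of 0 (0 of 11492, with 313 at an unadjusted p under 0.05, 0 called by DESeq2, 1190 by limma-voom with quality weights, and 576 by edgeR without IR day 3 replicate 6). Lect1 was at 1.19 (SE 1.33) and Col2a1 at 0.87 (SE 1.10), Hapln1 at 0.14, Col9a1 at 0.19, Acan at -0.21, Sox9 at -0.27 and Col11a1 at -0.53. DR day 3 replicate 1 set several of these values: without it Col2a1 was at -1.82, Col9a1 at -1.31, Hapln1 at -1.12, Lect1 at -2.09 and Acan at -1.55. Without IR day 3 replicate 2, in which Acan and Col11a1 were high, Acan was at 0.82 and Col11a1 at 0.38. Without the 6 libraries of high nasal gland share Sox9 was at 1.02 (SE 0.37).

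**Figure D3:**
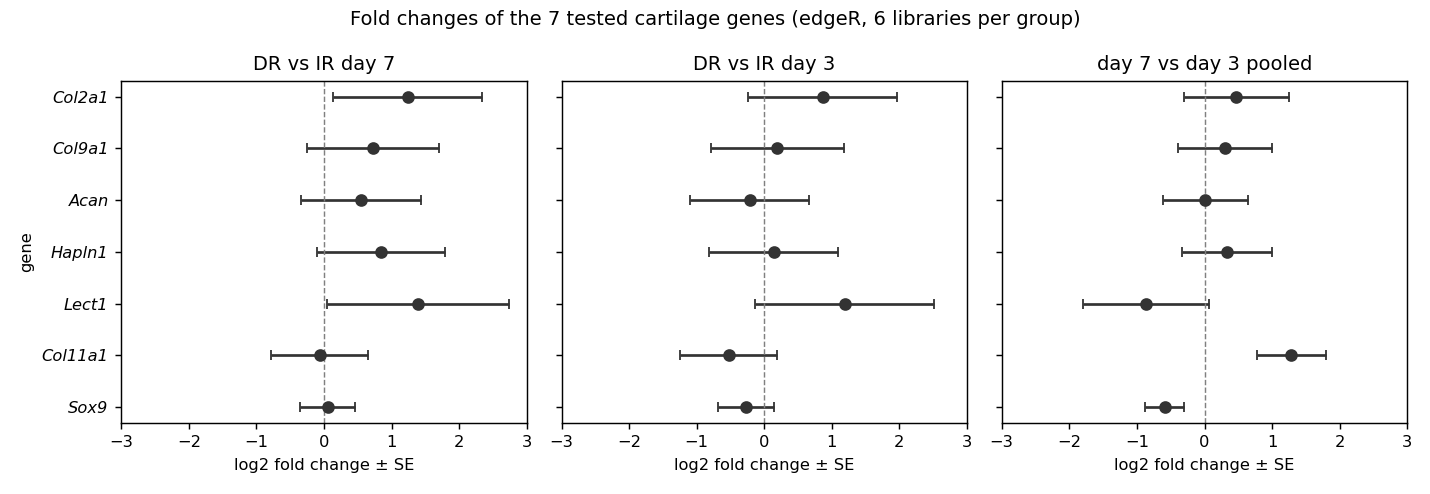
log2 fold change with its SE (edgeR, 6 libraries per group) of the 7 tested genes for DR over IR at day 7, DR over IR at day 3, and day 7 over day 3 averaged over DR and IR. Col11a1 in the time panel, at 1.28, lies farthest from 0 in units of its SE, and no gene was called in any panel.

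Day 7 was set against day 3 to follow healing, in each drying group and averaged over both. The 7 genes had a median log2 fold change of 0.57 in DR, -0.02 in IR and 0.30 averaged, against 0.00, -0.09 and -0.06 over all genes. Col11a1 had the smallest p of the 7 genes in DR and averaged, and Sox9 in IR, where it was at -0.75 (SE 0.41, edgeR adjusted p = 0.302). For Col11a1 the log2 fold change was 1.52 (SE 0.73, edgeR adjusted p = 0.221) in DR, 1.05 (SE 0.72, adjusted p = 0.402) in IR and 1.28 (SE 0.51, adjusted p = 0.0786) averaged, so it was not called. Percent called over all genes was 0.0087 in DR, 0.139 in IR (0.104 higher) and 18.8 averaged (2156 genes, 6.94% higher and 11.8% lower, but 176 genes, 138 higher and 38 lower, without the 4 libraries of high lipid gland share, and 2797 higher and 2682 lower with limma-voom and quality weights). By exact permutation within DR, Col11a1 averaged 9.40 ± 0.458 log2 CPM at day 7, against 7.27 ± 1.76 at day 3 (SD, n = 6 each, p = 0.00866, Benjamini-Hochberg 0.1), where 27.8% of genes had a p under 0.05. Within IR it averaged 9.42 ± 0.554 log2 CPM at day 7, against 7.33 ± 2.57 at day 3 (SD, n = 6 each, exact permutation p = 0.0325, Benjamini-Hochberg 0.252), where 17.4% of genes had one. Col11a1 passed the threshold with DESeq2 (1.29, adjusted p = 0.0348), with limma-voom and quality weights (2.03, adjusted p = 8.54e-05), and in edgeR without DR day 3 replicate 4 (1.48, adjusted p = 0.0449) or without IR day 3 replicate 2 (1.74, adjusted p = 0.014), the 2 day 3 libraries in which it was highest. Without the 4 libraries of high lipid gland share it was at 0.81 (SE 0.34, edgeR adjusted p = 0.233). Genes of the osteoblast list, which includes Col1a1, took a median of 6.35% of counts in DR and 6.86% in IR at day 7. At day 3 their medians were 2.30% in DR and 2.02% in IR. The part of these tissues in the difference was not tested.

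None of the other cartilage genes was called between days (edgeR), and 1 of the 7, Col11a1, had an unadjusted p under 0.05 in DR and averaged, as did 22.5% of all genes in DR and 35.6% averaged. Sox9 was at -0.59 (SE 0.29, adjusted p = 0.152), called with limma-voom and quality weights (-1.04, adjusted p = 0.000978) but not by DESeq2, and it was at -0.18 without the libraries of high nasal gland share. Col2a1 was at 0.47 (SE 0.77), Hapln1 at 0.33 (SE 0.67), Col9a1 at 0.30 (SE 0.69), Acan at 0.01 (SE 0.63) and Lect1 at -0.87 (SE 0.94). Within DR, Col2a1 was at 0.66 (SE 1.09), and without DR day 3 replicate 1 at 3.34, still not called. Leaving out the 4 libraries of high lipid gland share put Col2a1 at 4.37 in DR (SE 1.10, edgeR adjusted p = 0.216). As a mean of libraries in log2 CPM it stood at 3.72 ± 0.503 at day 7, against 0.767 ± 2.79 at day 3 (SD, n = 6 each, exact permutation p = 0.0346, Benjamini-Hochberg 0.155). The interaction of drying and day, with a percent called of 0 (0 of 11492, with 346 at an unadjusted p under 0.05, 11 called by DESeq2 and 522 by limma-voom with quality weights), was smaller than its SE for all 7 genes. This changed with the libraries used. Without DR day 3 replicate 1 alone the interaction was 3.05 for Col2a1, 3.48 for Lect1, 2.1 for Acan and 1.96 for Hapln1. Some other settings also gave values beyond the SE, such as 2.22 (SE 1.49) for Col2a1 with limma-voom and quality weights. The 4 libraries of high lipid gland share include DR day 3 replicates 1, 2 and 3. Without these 4 the interaction was 4.33 (SE 1.27, edgeR unadjusted p = 0.00289, adjusted p = 0.72) for Col2a1. For Hapln1 it was then 2.58 (SE 1.18, unadjusted p = 0.0413) and for Acan 1.84 (SE 0.92). Col9a1, Lect1 and Sox9 also exceeded their SE, Col11a1 did not (-0.03, SE 0.66), and 0 of 11894 genes were called. Matn1, which passed the filter in this setting, had an unadjusted p of 0.00652 (edgeR, adjusted p = 0.72). No fold is given for it, since the DR day 3 libraries left held 0 Matn1 reads.

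Against NT, which has no replicate and so no test, the genes split in direction. The log2 ratio of mean CPM, with 1 CPM added, was positive for Col2a1 (3.09 in DR and 1.97 in IR at day 7, 2.48 in DR and 1.73 in IR at day 3) and for Col9a1 (2.24, 1.65, 1.77 and 1.61 in the same order). It was negative for Col11a1 (-0.90, -0.84, -2.42 and -1.89) and for Sox9 (-1.31, -1.37, -0.89 and -0.62). In the 4 groups Acan lay between -0.69 and -0.18, Hapln1 between -0.07 and 0.61, and Lect1 between -0.54 and 1.26. DR day 3 replicate 1 carried the DR day 3 ratios: without it Col2a1 was at 0.42, Col9a1 at 0.73, Hapln1 at -0.84 and Acan at -1.74, and Lect1 was at -1.26, opposite in sign. NT held 6 reads of Col2a1 and 3 of Col9a1, so the ratios of these genes rest on few reads.

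Across the 24 replanted libraries the genes did not move as a single set. Pearson's r was computed for the 21 pairs of tested genes in log2 CPM, and all values share the same library scaling. The permutations shuffled all 24 libraries freely, so their p-values do not allow for differences between days and groups or for related libraries. Col2a1 and Col9a1 went together (r = 0.928, rho = 0.904, permutation p = 1e-05 for each, the smallest that 100000 resamples can give, Benjamini-Hochberg 5.25e-05 and 7e-05), with r = 0.896 without the 2 libraries farthest from the Col2a1 median, 0.895 within day 7 and 0.957 within day 3. Col2a1 also went with Hapln1 (r = 0.853, rho = 0.873, permutation p = 1e-05 for each, Benjamini-Hochberg 5.25e-05 and 7e-05, r = 0.851 without the 2 farthest) and with Lect1 (r = 0.746, rho = 0.774, permutation p = 2e-05 and 3e-05, Benjamini-Hochberg 8.4e-05 and 0.000126, r = 0.752 without the 2 farthest). Col2a1 and Acan had r = 0.708 over all libraries (rho = 0.715, permutation p = 7e-05 and 0.00017, Benjamini-Hochberg 0.000184 and 0.000446, r = 0.695 without the 2 farthest), 0.197 within day 7 and 0.745 within day 3, so the relation was not seen at day 7.

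Col11a1 followed a different course. With Col2a1 its r was 0.468 over all libraries (rho = 0.374, permutation p = 0.0188 and 0.0722, Benjamini-Hochberg 0.0329 and 0.117), 0.43 without the 2 farthest, -0.245 within day 7 and 0.352 within day 3, so it did not hold within both days. With Acan its r was 0.777 (rho = 0.586, permutation p = 0.00013 and 0.00333, Benjamini-Hochberg 0.000303 and 0.00699) over all libraries, 0.409 within day 7, 0.774 within day 3 and 0.383 without the 2 farthest, so its strength rests in part on those. Sox9 had r between -0.325 (with Col11a1) and 0.339 (with Lect1), and with the collagen it is known to switch on, Col2a1, r = 0.0926 (rho = 0.0801, permutation p = 0.667 and 0.71, Benjamini-Hochberg 0.752 and 0.828).

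**Figure D4:**
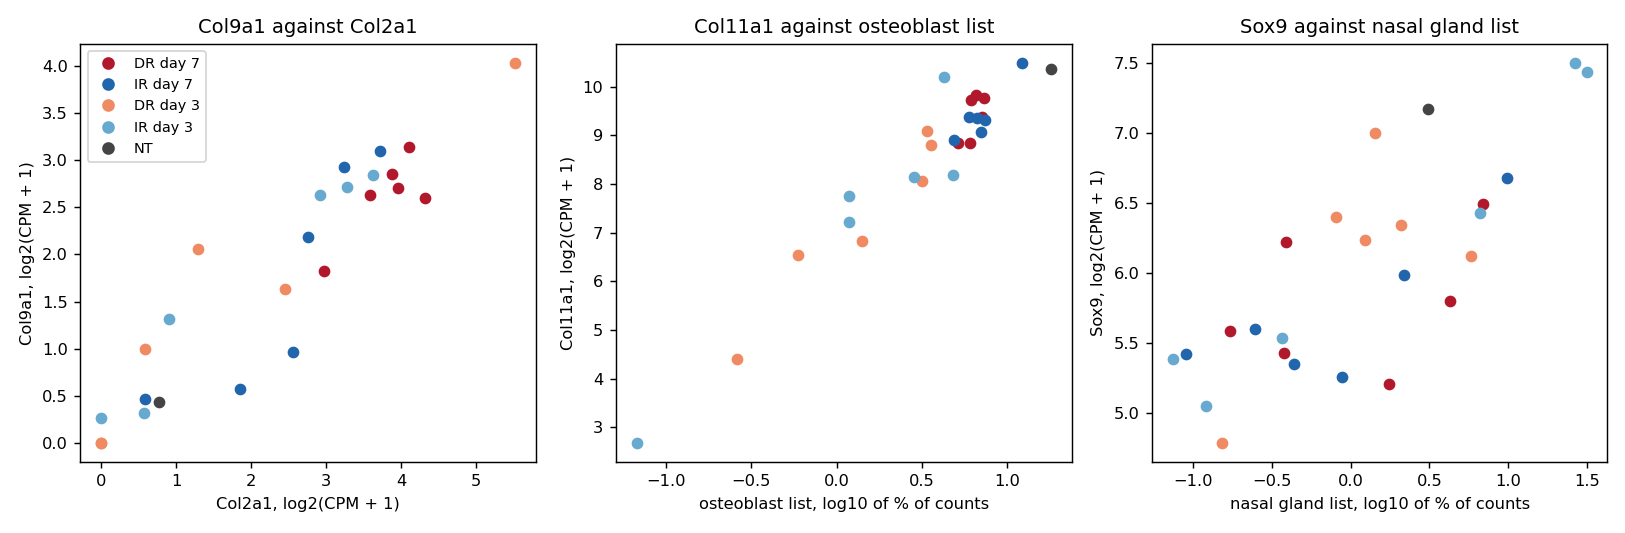
Each point is a library, coloured by group, and the osteoblast list includes Col1a1. Left, Col9a1 against Col2a1, both as log2(CPM + 1), rise together; middle, Col11a1 against the osteoblast list's share of counts (log10 of percent), from 0.0674% in IR day 3 replicate 6 to 18.1% in NT; right, Sox9 against the nasal gland list's share (log10 of percent), where the 2 libraries of largest share, both of IR day 3, have the highest Sox9.

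Outside the list, the genes most like Col2a1 over the 24 libraries were RGD1311447 (r = 0.867), a synonym of Snorc in RefSeq, Col9a2 (0.836), Chad (0.825), Nebl (0.803), Scrg1 (0.778), Skap1 (0.760), Heyl (0.759) and Sit1 (0.756). Snorc is a cartilage proteoglycan. The genes most like Acan were Smoc2 (0.902), Rasgrp2 (0.831), Dnajc18 (0.808), Kifc3 (0.807), Ccnb2 (0.804), RGD1305645 (0.804), Spic (0.802) and Sf3b3 (0.796). Without the 2 libraries farthest from the Acan median, r with Acan was 0.756 for Smoc2 and 0.446 to 0.596 for the other 7, and rho over all 24 ran from 0.448 to 0.756. Within day 7, r with Acan was 0.753 for Kifc3, 0.391 for Smoc2 and -0.208 for Rasgrp2. The same ranking was made for Col11a1 and Sox9 after their values had been seen. Col11a1 was most like Sparc (0.991), which encodes osteonectin of bone matrix, and Scarf2 (0.978), then Col1a1 (0.977), the main collagen of bone and ligament, and Col16a1 (0.973). Sox9 was most like Sort1 (0.915), Tfcp2l1 (0.910), Ppp1r3c (0.871) and Mgat4a (0.853).

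Sox9 was highest in the libraries of the largest nasal gland shares. IR day 3 replicates 3 and 4 had 180.1 and 172 CPM of Sox9 with 26.5% and 31.4% of counts from that list, IR day 7 replicate 6 had 101.4 CPM with 9.85%, and DR day 7 replicate 6 had 89.0 CPM with 6.93%. IR day 3 replicate 5 had 85.0 CPM with 6.60%, and DR day 3 replicate 4 had 68.5 CPM with 5.84%, near the middle of the DR day 3 range. DR day 3 replicate 1 (127 CPM, 1.43%) was high without a large share. The part of gland tissue in the Sox9 level was not tested.

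Other genes of cartilage were taken from 6 lists, chosen with earlier results of these data known. None of the 51 tested genes was called in DR against IR at either day, and 0 had an unadjusted p under 0.05 (edgeR). In the averaged comparison of day 7 with day 3, 18.8% of all genes were called, with 6.94% higher and 11.8% lower. Of 12 tested matrix genes 2 rose and 0 fell. Col11a2, the partner chain of Col11a1, rose by 1.53 on the log2 scale (SE 0.41, edgeR adjusted p = 0.0153). Cilp, a protein of the deeper cartilage layers, rose by 1.29 (SE 0.43, adjusted p = 0.0416). The other matrix genes were not called, among them Prg4, the lubricant lubricin, at -0.01 (SE 0.43), and Matn4, a matrilin of many tissues, at 1.11 (SE 0.73), with a list median of 0.33 against -0.06 over all genes. At day 7 Col11a2 had 75.0, 108 and 178 CPM in DR and 66.0, 95.3 and 246 CPM in IR, and at day 3 it had 3.92, 33.6 and 49.8 CPM in DR and 2.41, 43.2 and 136 CPM in IR, with 394 CPM in NT. In DR its day 7 and day 3 libraries did not overlap, while in IR they did.

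Sulfation of aggrecan needs sulfate uptake and transfer. In that list 0 of 6 tested genes rose and 2 fell in the averaged comparison, where 6.94% of all genes rose and 11.8% fell. Those 2 were Slc26a2, the sulfate transporter, lower by 1.79 (SE 0.45, edgeR adjusted p = 0.0125), and Papss2, which makes the activated sulfate, lower by 0.47 (SE 0.14, adjusted p = 0.0236). Chsy1 and Chpf, which extend chondroitin chains, were at 0.70 (SE 0.48) and 0.60 (SE 0.29). Of 7 tested transcription factors 1 fell, Sox5, a partner of Sox9, by 2.51 (SE 0.61, adjusted p = 0.0104), while Arid5b, Trps1 and Runx2 were at 0.25, 0.75 and 0.37. Sox5 and Slc26a2 were highest in IR day 3 replicate 6 (51.9 and 68.4 CPM), whose lipid gland share was 2.65%. Without the 4 libraries of high lipid gland share Slc26a2 was at -0.46 (SE 0.25, adjusted p = 0.365) and Sox5 at -1.13 (SE 0.55, adjusted p = 0.302).

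Among 8 tested growth plate signals 2 rose in the averaged comparison, where 6.94% of all genes did. Those 2 were Chrdl1, an inhibitor of bone morphogenetic proteins, by 1.10 (SE 0.31, edgeR adjusted p = 0.0201), and Npr2, a receptor that promotes growth of long bones, by 0.78 (SE 0.27, adjusted p = 0.0465). Wif1, a Wnt inhibitor, was at 1.27 (SE 0.52, adjusted p = 0.0846) and Pth1r, the parathyroid hormone receptor, at 0.78 (SE 0.45). Of 10 hypertrophic cartilage genes, which bone cells share, 1 rose, the mineralization phosphatase Phospho1, by 0.82 (SE 0.27, adjusted p = 0.0408), while Ibsp, Spp1 and Mmp13 were at 0.72, 0.81 and 0.09. None of 8 aggrecan-degrading proteases and inhibitors was called and 2 had an unadjusted p under 0.05 (edgeR), as did 35.6% of all genes, with Timp1 at -0.14, Mmp14 at 1.27 (adjusted p = 0.0636) and Timp3 at 0.42. Over these lists 8 of 51 tested genes were called, or 15.7%, against 18.8% of all genes. Without the libraries of high nasal gland share 3 of the 8 were called (Chrdl1, Slc26a2 and Sox5), where 19.4% of all genes were, and Cilp at 1.49, Col11a2 at 1.49, Npr2 at 0.72, Phospho1 at 0.73 and Papss2 at -0.33 were not. Without those of high lipid gland share 1 of the 8 was called, Col11a2 at 1.44 (SE 0.30, adjusted p = 0.0223), where 1.48% of all genes were.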

How the data were processed

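The members and gene lists were chosen with earlier results of these data known. The authors deposited 1 table per library of read counts per gene symbol, whole numbers and not normalised. Each Lexogen QuantSeq library began with 500 ng of RNA, per the labels' protocols. Per the submitters' processing notes, Bowtie2, edgeR and the builds mm10 and rn6 were used, and what each did, with its version, the counting tool and the strand setting, was not given in the sources used here. Overlapping genes' reads cannot be told apart, and limits from counts cover counting error only. Of 149 repeated symbols the entry of highest total was used, and no member was repeated.

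The test was edgeR 4.0.16 in R 4.3.3, with TMM scaling, filterByExpr by group, and a robust quasi-likelihood fit of 4 group means over the 24 replanted libraries (11492 genes, 20 residual degrees of freedom), with Benjamini-Hochberg adjustment over all genes and a threshold of 0.05. Contrasts were DR minus IR at each day, day 7 minus day 3 in DR, in IR and averaged over both, and the interaction. DESeq2 1.42.0 and limma 3.58.1 (voom with quality weights) were alternatives, with other scalings, filters, left-out libraries and a replicate block. The permutation test of Matn1 and Matn3 (SciPy 1.17.1) was part of the plan. An exact permutation test of log2 CPM over all tested genes was added after the data had been seen. Log2 CPM had a prior count of 2. No 2 libraries were identical.

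Same-numbered DR and IR libraries of day 7 deviated together, with correlations of 0.214 to 0.72 over the 6 pairs, although 3 of the 6 correlated best with a library of another number. The main fit used no pairs. Their numbers were used as pairs only in the counts of pairs and the replicate block, on the data alone. Other pairs of groups did not, with correlations of -0.415 to 0.214 at day 3, -0.493 to -0.0601 between days in DR and -0.293 to 0.337 in IR. The replicate block was run there as well, without such a basis. The deposited names number the day 7 libraries differently from the labels. Genes named are the members, the called genes and the 3 of highest mean CPM in each of 6 cartilage lists, and the 8 genes of highest r with Col2a1 and with Acan. Genes like Col11a1 and Sox9, and the matrix genes ranked in DR day 3 replicate 1, were named after their values had been seen.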

Additional observations from a re-analysis of the deposited data

Results flagged for a closer look

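A library far from the other 5 of its group was found in 5 of 33 gene and group pairs checked. The limit was a gap of 0.625 of the group's range, which flags about 1 in 20 groups of normally distributed values. That rate does not hold for groups mostly at 0 reads, such as those of Matn1. The gap of Matn1 in IR day 7 replicate 6 was at the limit. Col11a1 in IR day 7 replicate 3 stood above its group at 10.5 log2 CPM (1432 CPM, 8825 reads). Acan in DR day 7 replicate 5 stood below its group at 2.31 log2 CPM (4.66 CPM, 34 reads). Matn1 stood above its group in DR day 3 replicate 1 at 5.64 log2 CPM (49.5 CPM, 364 reads), in IR day 3 replicate 3 at 3.31 (9.63 CPM, 52 reads) and in IR day 7 replicate 6 at -0.29 (0.529 CPM, 5 reads), in groups whose other libraries mostly held 0 reads.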

How the results depend on the processing

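All values here are log2 fold changes, and the cause of a change was not tested. Over up to 11 settings a contrast, 386 of 434 member values kept their direction and their side of the threshold, 42 changed sign and 6 passed the threshold. The number of members called was 0 in each contrast, but 2 with limma-voom and quality weights for day 7 over day 3 in IR, 1 in DR and 2 averaged over both, and 1 with DESeq2 averaged over both. Leaving out each library in turn gave 0 to 1 members called in the averaged contrast. The replicate block called 0 members and changed no call, and over all genes it called 1197 in the averaged contrast, against 2156 without it. Libraries of the same number deviated together at day 7 only, so the block has no basis in the other contrasts. In that contrast DESeq2 called 3039 genes and limma-voom 5479, and leaving out each library in turn gave 1375 (without DR day 3 replicate 3) to 2916 (without IR day 3 replicate 2). In IR over days, where 16 genes were called, DESeq2 called 748, limma-voom 4394 and the fit of those groups alone 0, with 81 without the lipid gland libraries and 0 to 402 (without IR day 3 replicate 1) with each library left out. In DR over days, where 1 gene was called, DESeq2 called 1064, limma-voom 3305 and the fit of those groups alone 43, with 0 to 1420 (without IR day 3 replicate 6) with each library left out. DR over IR at day 7 kept the sign of all 7 genes under each setting that leaves out no single library.

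For DR over IR at day 3, the values of opposite sign were Col2a1 -0.655, Col9a1 -0.365 and Lect1 -0.557 with limma-voom and quality weights, Col2a1 -1.09, Col9a1 -0.583, Acan 0.0505 and Lect1 -1.03 with the replicate block, Sox9 1.02 without the nasal gland libraries. They were also Col2a1 -3.09, Col9a1 -1.44, Hapln1 -1.73 and Lect1 -2.3 without the lipid gland libraries, Col2a1 -0.491, Col9a1 -0.466, Hapln1 -0.212 and Lect1 -0.394 as means of log2 CPM. For day 7 over day 3 in IR, the values of opposite sign were Col9a1 -0.185, Acan 0.786 and Hapln1 0.452 with limma-voom and quality weights, Col9a1 -0.0279, Acan 0.79 and Hapln1 0.697 with the replicate block, Sox9 0.248 without the nasal gland libraries. They were also Col9a1 -0.205 without the lipid gland libraries, Acan 1.02 and Hapln1 0.579 as means of log2 CPM, Hapln1 0.0241 with no filter on low counts. They were also Hapln1 0.0169 with ribosomal RNA removed, Hapln1 0.01 with only the groups compared. For day 7 over day 3 in DR, the values of opposite sign were Lect1 0.815 with limma-voom and quality weights, Lect1 1.53 with the replicate block, Sox9 0.0479 and Lect1 2.48 without the lipid gland libraries. They were also Lect1 1.24 as means of log2 CPM. For day 7 over day 3 averaged over both, the values of opposite sign were Lect1 0.405 with the replicate block, Acan -0.288 without the nasal gland libraries, Lect1 0.627 without the lipid gland libraries. For the interaction, the values of opposite sign were Col2a1 -0.183, Col9a1 -0.218, Sox9 -0.851 and Lect1 -1.06 without the nasal gland libraries, Col11a1 -0.0344 without the lipid gland libraries.

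Leaving out 1 library changed the sign of 57 of 1008 values, in the genes whose ranges follow. For DR over IR at day 7, it ran between -0.161 and 0.24 for Col11a1 and between -0.122 and 0.338 for Sox9. For DR over IR at day 3, it ran between -1.82 and 1.34 for Col2a1, between -1.31 and 0.492 for Col9a1, between -0.924 and 0.384 for Col11a1, between -1.55 and 0.823 for Acan, between -1.12 and 0.815 for Hapln1, between -0.473 and 0.0331 for Sox9 and between -2.09 and 2.14 for Lect1. For day 7 over day 3 in IR, it ran between -0.0774 and 0.76 for Col2a1, between -0.4 and 0.335 for Col9a1, between -0.628 and 0.668 for Acan and between -0.276 and 0.657 for Hapln1. For day 7 over day 3 in DR, it ran between -1.04 and 2.51 for Lect1. For day 7 over day 3 averaged over both, it ran between -0.117 and 0.684 for Acan and between -1.15 and 0.772 for Lect1. For the interaction, it ran between -0.103 and 3.05 for Col2a1, between -0.448 and 0.86 for Col11a1, between -0.273 and 2.1 for Acan and between -0.747 and 3.48 for Lect1.

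Depth limited Matn1, Matn3 and the low values of Col2a1, Col9a1, Hapln1 and Lect1, which rest on few reads in many libraries, and 3 counts correspond to about 0.4 CPM in a library such as DR day 3 replicate 1. Gland, ribosomal RNA and bone shares differed between libraries of 1 group, and their part in the results was not tested. NT is a single library, so it has no error.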
